A study of Mus musculus with 6 samples.

Results

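The insulin-like growth factor (IGF) axis was followed in MC38, a mouse colon carcinoma line of C57Bl/6 background, through 10 genes: the ligand genes Igf1 and Igf2, the receptor genes Igf1r and Igf2r, and 6 genes of IGF binding proteins, Igfbp2 to Igfbp7. Every array probe annotated to 1 of these symbols was taken, which gave 24 of the 45281 probes. Of the 10 genes, 6 were detected well enough to be tested (Igf2, Igf1r, Igf2r, Igfbp4, Igfbp6 and Igfbp7), among 8909 genes tested in all, and 4 were detected on none of the 6 arrays (Igf1, Igfbp2, Igfbp3 and Igfbp5). The arrays were single-colour Illumina bead arrays hybridised with RNA of whole cell populations. Stimulated cells were starved of serum for 16 h and given S100A8/A9, a secreted calcium-binding protein pair of neutrophils and monocytes, at 10 µg/mL for 6 h. Unstimulated cells were starved for 16 h and received no S100A8/A9, and control cells stayed in normal growth medium. Each group had 2 arrays. The labels do not say whether the unstimulated cells were kept for the further 6 h, nor whether the 2 samples of a group were grown separately. The p-values therefore reflect only how far these samples spread, and that spread may be technical. The arrays of a group sat side by side on the chip, so chip position and group cannot be told apart.

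IGF1 and IGF2 are secreted growth factors that activate the receptor tyrosine kinase encoded by Igf1r, which signals through insulin receptor substrates to PI3 kinase and Akt and promotes growth and survival. The product of Igf2r, the cation-independent mannose 6-phosphate receptor, takes up IGF2 and delivers it to lysosomes and carries no kinase. The classical binding proteins hold IGFs in the extracellular space with high affinity and can limit or prolong their action, IGFBP6 preferring IGF2, whereas the product of Igfbp7 shares the N-terminal domain of the family but binds IGFs weakly. Igf2 is an imprinted gene expressed mainly in the embryo, and its re-expression is a known feature of many tumours.

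Between 14877 and 16176 probes were detected per array, that is, had a detection p-value below 0.01 against the negative control beads of the same array, and the lowest detected signal was 109.3 to 121.7 intensity units. Replicate arrays correlated at r = 0.991 to 0.992 across genes, which are not independent replicates. The labelled cell type was checked against markers. None of 9 epithelial and colon markers was tested: 7 were never detected, among them Epcam, Krt8 and Vil1, and Cdh1 and Cdx1 were detected on 1 array each, so these genes did not bear out an epithelial identity of the labelled colon carcinoma cells. Fibroblast and mesenchymal markers were present, with 8 of 9 tested. Among 4 leukocyte, 3 endothelial and 3 hepatocyte markers with a probe, 1 leukocyte marker, Cd3e, was detected on 1 array and the others on none. RNA came from whole cultures, where fewer cells of a type and less RNA per cell cannot be told apart.

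Serum starvation went with higher signals of Igfbp7, Igf2 and Igfbp4, and S100A8/A9 added to starved cells went with no called change of any member. The windows upstream of the transcription start of these 3 genes are shown because these were the members that moved. Each is the 250 bases before a start site in the RefSeq promoter table for build GRCm38.p6, written 5′ to 3′ on the strand of the gene. Capitals mark the sequence of the TATA box, that is TATAAA, and that of the GC box, the core bound by SP1 family factors, that is GGGCGG. Both were searched on both strands, so that a GC box on the opposite strand reads CCGCCC. Another motif, TGTTTAC, the core bound by FOXO factors that Akt inactivates, was searched in the same way. The Igf2 window is the one nearest to the 3′ end of the gene among 4 listed starts, and the arrays do not tell which start was used.
Igfbp7 (chr5:77408046-77408295, minus strand): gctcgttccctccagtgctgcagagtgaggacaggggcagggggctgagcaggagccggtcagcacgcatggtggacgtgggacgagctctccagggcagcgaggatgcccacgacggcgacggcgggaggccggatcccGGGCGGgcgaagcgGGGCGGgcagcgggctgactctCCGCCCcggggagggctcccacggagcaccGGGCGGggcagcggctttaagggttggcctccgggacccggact
Igf2 (chr7:142657497-142657746, minus strand): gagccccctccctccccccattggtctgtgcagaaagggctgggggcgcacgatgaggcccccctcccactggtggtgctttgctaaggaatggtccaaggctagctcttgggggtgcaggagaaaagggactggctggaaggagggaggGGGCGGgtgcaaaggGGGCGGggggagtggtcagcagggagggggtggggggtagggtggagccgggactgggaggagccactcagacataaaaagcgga
Igfbp4 (chr11:99040994-99041243, plus strand): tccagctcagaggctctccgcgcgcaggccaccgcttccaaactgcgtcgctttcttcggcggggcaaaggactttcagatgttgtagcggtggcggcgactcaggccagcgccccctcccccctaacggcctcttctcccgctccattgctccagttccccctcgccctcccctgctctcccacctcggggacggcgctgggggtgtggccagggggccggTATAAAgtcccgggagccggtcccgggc

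The Igfbp7 window had a GC content of 74.0%, 26 CpG dinucleotides and 4 GC boxes, with no TATA box. The Igf2 window shown had a GC content of 66.0%, 6 CpG dinucleotides and 2 GC boxes. The other listed Igf2 windows differed, with a GC content of 68.8%, 47.6% and 50.8%, 22, 10 and 1 CpG dinucleotides, and 1, 0 and 0 GC boxes. The Igfbp4 window had a GC content of 69.2%, 22 CpG dinucleotides and 1 TATA box, and no GC box. None of these motifs was in all 3 windows shown. Over all 32851 promoter windows of the same length, the median GC content was 52.4% and the median number of CpG dinucleotides 6.0; the GC box occurred in 32.7%, the TATA box in 12.4% and the FOXO core in 3.17%. The FOXO core was in no window of the 10 members. These matches describe the letters of the windows only.

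**Figure D1:**
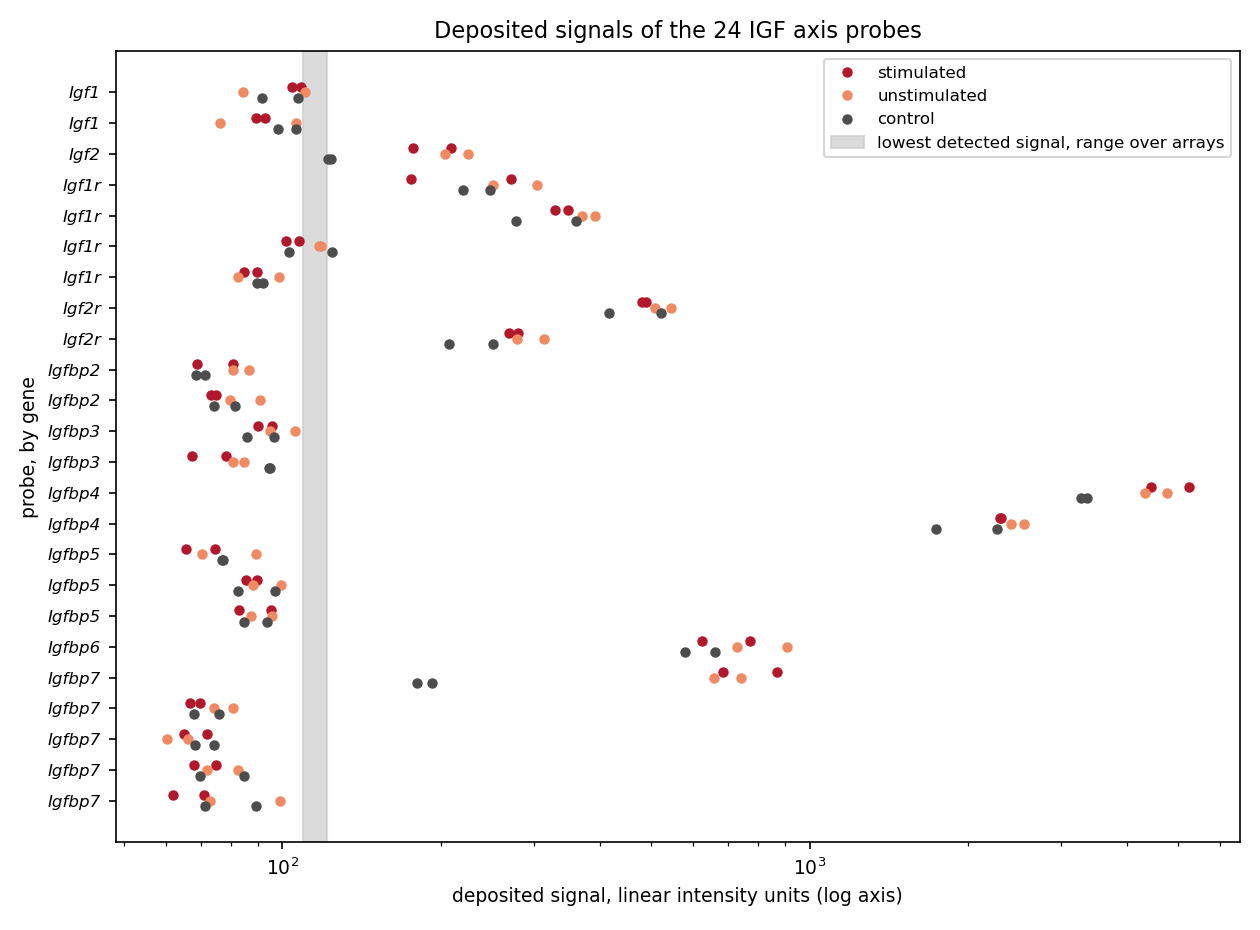
Deposited signal (linear intensity units, log axis) of each of the 24 IGF axis probes, labelled by gene, with points for the stimulated, unstimulated and control arrays. The grey band is the range over arrays of the lowest detected signal, 109.3 to 121.7; the probes of Igf1, Igfbp2, Igfbp3 and Igfbp5 lie below or at it, and 1 of 5 Igfbp7 probes lies clear of it.

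Of the ligand genes, Igf1 was not detected by either of its 2 probes, whose signals were 76.1 to 110.4 over the 6 arrays. The lowest of its 12 detection p-values was 0.0107, and 5 were below 0.05, so Igf1 lay close to the threshold without passing it. Igf2 was detected by its only probe on all 6 arrays. Its signal was 176.8 and 209 in stimulated cells, 224.6 and 203.1 in unstimulated cells, and 122.2 and 123.6 in control cells. All 4 arrays of starved cells lay above both control arrays, and the stimulated and unstimulated values overlapped. The control signals were barely above background, with detection p-values of 0.00962 and 0.00748.

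Of the binding protein genes, Igfbp4, Igfbp6 and Igfbp7 were detected. Igfbp7 had the largest difference of all members. The signal of its detected probe was 683.7 and 868.4 in stimulated cells, 741.8 and 658.7 in unstimulated cells, and 179.7 and 192 in control cells. Every array of starved cells was far above both control arrays. This rests on 1 of 5 Igfbp7 probes: the other 4 were detected on no array, with signals of 60.3 to 99.1. The signal of the Igfbp4 probe used was 4446.5 and 5237.7 in stimulated cells, 4766 and 4320.1 in unstimulated cells, and 3269.9 and 3363.7 in control cells. The second Igfbp4 probe gave 2298 and 2304.3 in stimulated cells, 2547.9 and 2415.8 in unstimulated cells, and 1738.2 and 2263.6 in control cells. On both probes the arrays of starved cells were above both control arrays, by a narrow margin on the second.

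Igfbp6, with 1 probe, gave 624.2 and 769.4 in stimulated cells, 728.4 and 905.1 in unstimulated cells, and 581 and 661.2 in control cells. These raw signals overlapped between starved and control cells. Igfbp2, Igfbp3 and Igfbp5 were not detected. Their highest signals were 90.7, 105.5 and 99.4 over 2, 2 and 3 probes, and 1 of these probe values, of Igfbp3, had a detection p-value below 0.05. Such signals give only an upper bound, and no fold change is given for these genes.

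Both receptor genes were detected on all arrays. The Igf1r probe used gave 329.4 and 348.2 in stimulated cells, 392.4 and 370.4 in unstimulated cells, and 277.4 and 361 in control cells. The Igf2r probe used gave 489.2 and 482 in stimulated cells, 545.4 and 508.4 in unstimulated cells, and 415.7 and 521.5 in control cells. For each receptor gene the raw signals of starved and control cells overlapped, control replicate 2 being the higher of the control arrays. A second Igf1r probe was also detected on all 6 arrays, at 271.1 and 175.7 in stimulated cells, 304.4 and 250.5 in unstimulated cells, and 219.8 and 247.6 in control cells, and differed most between the 2 stimulated replicates. Of the other 2 Igf1r probes, 1 was detected on 3 arrays and 1 on none.

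**Figure D2:**
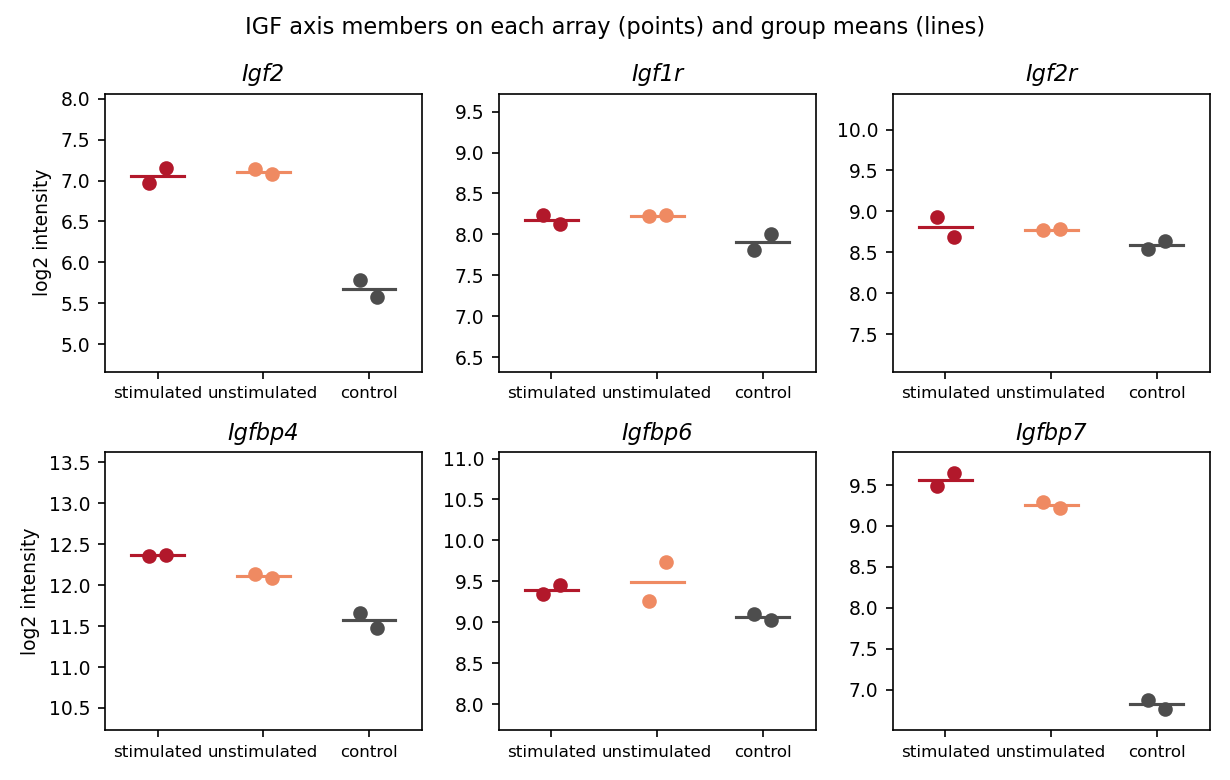
Background-corrected, quantile-normalized log2 intensity of the 6 tested members, with 1 point per array and a line at each group mean, for stimulated, unstimulated and control cells. Igfbp7 and Igf2 show control arrays far below all others, and the axes span the same number of log2 units in every panel.

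Tests were run on background-corrected, quantile-normalized log2 intensities with limma, a gene being called changed at a Benjamini-Hochberg adjusted p below 0.05 over the 8909 genes. In unstimulated against control cells, the comparison of serum starvation with normal growth medium, 3 of the 6 tested members were called higher and 0 lower, where 17.1% of all tested genes were called higher and 13.7% lower. Leaving out unstimulated replicate 1 or 2, or control replicate 1 or 2, gave 1527, 1366, 1664 and 1736 called genes, higher and lower together, in place of 2746. The median log2 fold change of the 6 members was 0.49, and that of all tested genes was -0.0016. On the normalized scale the groups did not overlap for any of the 6 members. The share of all tested genes without overlap was not counted, so this is not shown to be particular to the members. A member had to be detected on at least 2 arrays to be tested, and all 6 were detected on every array.

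Igfbp7 averaged 9.25 ± 0.052 on the log2 scale in unstimulated cells and 6.82 ± 0.082 in control cells (SD, n = 2 each), a log2 fold change of 2.44 ± 0.15 (SE) with a limma adjusted p of 1.71e-05. Its rise ranked 32 among the 8909 genes. Igf2 averaged 7.11 ± 0.041 in unstimulated cells and 5.68 ± 0.15 in control cells (SD, n = 2 each), a log2 fold change of 1.43 ± 0.15 (limma adjusted p 0.000371) and rank 180. With the control signals so near background, the size of this change depended on the background correction: the log2 fold change was 0.78 without any, still past the threshold. Igfbp4 averaged 12.11 ± 0.034 in unstimulated cells and 11.57 ± 0.13 in control cells (SD, n = 2 each), a log2 fold change of 0.54 ± 0.14 with a limma adjusted p of 0.0209. The call on Igfbp4 was lost without unstimulated replicate 1 (adjusted p 0.0891), without unstimulated replicate 2 (0.0761), without control replicate 2 (0.108) and with median scaling (0.0767), and its second probe gave 0.38 ± 0.16 (adjusted p 0.113 over all detected probes). In these 3 genes, 2 of 2 unstimulated arrays were above both control arrays. The same held for the other tested members on the normalized scale, so it does not set these 3 apart.

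The other 3 tested members were not called in this comparison. Igfbp6 averaged 9.49 ± 0.34 in unstimulated cells and 9.07 ± 0.049 in control cells (SD, n = 2 each), a log2 fold change of 0.43 with a 95% interval of 0.023 to 0.83 (limma adjusted p 0.101). It depended on the unstimulated replicates, which lay apart: the log2 fold change was 0.67 without replicate 1 (adjusted p 0.0438) and 0.19 without replicate 2 (0.487). Igf1r averaged 8.23 ± 0.013 in unstimulated cells and 7.90 ± 0.14 in control cells (SD, n = 2 each), a log2 fold change of 0.32 with an interval of -0.0085 to 0.66 and a limma adjusted p of 0.126. The other 2 detected Igf1r probes gave 0.32 ± 0.31 and 0.18 ± 0.21. Igf2r gave a log2 fold change of 0.19 with an interval of -0.15 to 0.53 (limma adjusted p 0.372), and its second probe gave 0.50 ± 0.16 (adjusted p 0.0511 over all detected probes). A p above the threshold does not show that these genes were equal in the 2 groups: the intervals allow a rise of more than 0.50 log2 units for each of them.

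**Figure D3:**
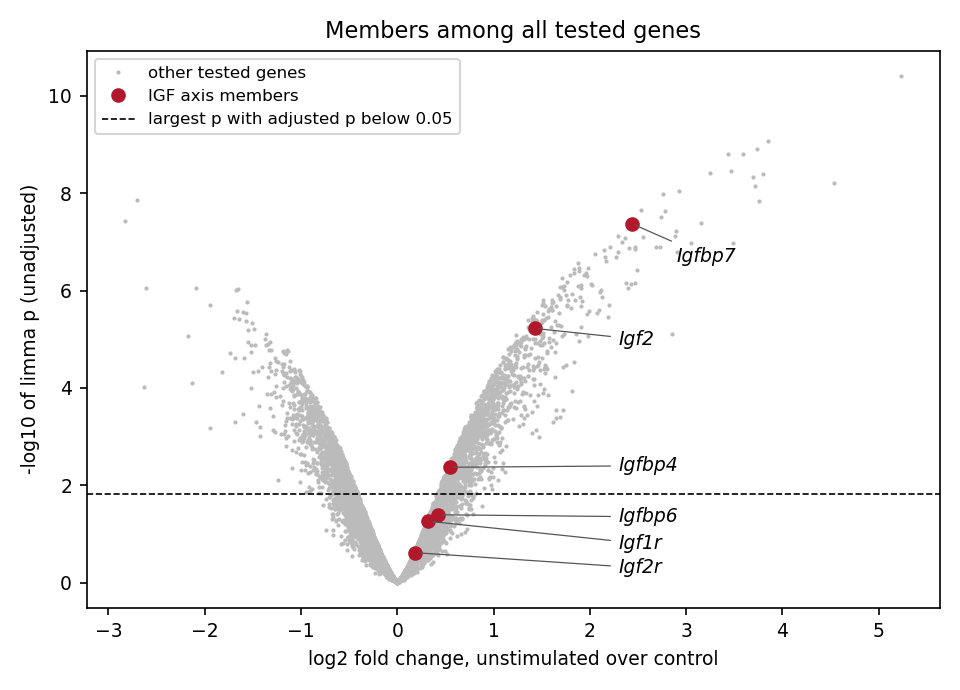
Log2 fold change of unstimulated over control cells (x axis) against -log10 of the unadjusted limma p (y axis) for all 8909 tested genes, with the 6 IGF axis members named; the dashed line is the largest p with an adjusted p below 0.05. Igfbp7, Igf2 and Igfbp4 lie above the line on the right and the other 3 members below it.

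Stimulated against unstimulated cells gave the response to S100A8/A9 under starvation. None of the 6 tested members was called: 0 were higher and 0 lower with limma, and 0 had an unadjusted p below 0.05, where 0.0786% of all tested genes were called higher and 0% lower. The median log2 fold change was -0.0057 for the members and -0.0077 for all tested genes. Igfbp7 averaged 9.57 ± 0.11 in stimulated cells and 9.25 ± 0.052 in unstimulated cells (SD, n = 2 each), a log2 fold change of 0.31 with an interval of -0.014 to 0.64 (limma adjusted p 0.626). Igfbp4 averaged 12.37 ± 0.0078 in stimulated cells and 12.11 ± 0.034 in unstimulated cells (SD, n = 2 each), a log2 fold change of 0.25 with an interval of -0.070 to 0.58 (limma adjusted p 0.694). For these 2 genes both stimulated arrays were above both unstimulated arrays on the normalized scale, but not in the deposited signals, where Igfbp7 and Igfbp4 overlapped between the groups. The share of all tested genes without overlap was not counted in this comparison either. The second Igfbp4 probe gave 0.057.

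For the remaining 4 tested members the stimulated and unstimulated arrays overlapped. The log2 fold change was -0.047 for Igf2, with an interval of -0.39 to 0.30. It was -0.048 for Igf1r (-0.38 to 0.28), 0.035 for Igf2r (-0.30 to 0.37) and -0.097 for Igfbp6 (-0.50 to 0.31). The signs of these 4 estimates turned when single arrays were left out or, for Igf2r, under median scaling, which moved the median of all tested genes to -0.13 in this comparison. The intervals of these 4 genes leave room for changes in either direction, which these arrays did not resolve.

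Stimulated against control cells combined starvation and S100A8/A9, and shares its arrays with both comparisons above. In this comparison 3 of 6 tested members were called higher and 0 lower, where 15.9% of all tested genes were called higher and 13.2% lower. With median scaling the calls over all genes split the other way, 960 higher and 1292 lower in place of 1417 higher and 1172 lower, and the median of all genes moved to -0.11, while the 3 members were called higher under both. Leaving out control replicate 1 or 2 gave 1554 and 1594 called genes in place of 2589. The median log2 fold change was 0.56 for the members and -0.0088 for all tested genes. The groups did not overlap for any member on the normalized scale, but the share of all tested genes without overlap was again not counted.

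In stimulated against control cells, Igfbp7 had a log2 fold change of 2.75 ± 0.15 (limma adjusted p 7.68e-06, rank 27 of the 8909 rises), Igf2 had 1.38 ± 0.15 (limma adjusted p 0.000428) and Igfbp4 had 0.80 ± 0.14 (limma adjusted p 0.00416). Both stimulated arrays were above both control arrays for each, as for every other tested member on the normalized scale. Without background correction the Igf2 value was 0.75. The log2 fold change was 0.33 for Igfbp6 (interval -0.074 to 0.74), 0.28 for Igf1r (-0.056 to 0.61) and 0.22 for Igf2r (-0.12 to 0.56), none of them called. The other 2 detected Igf1r probes gave 0.011 ± 0.31 and -0.038 ± 0.21, so the higher Igf1r estimate was that of 1 probe. The second Igf2r probe gave 0.54 ± 0.16 and passed the threshold when all detected probes were tested one by one (limma adjusted p 0.0416).

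**Figure D4:**
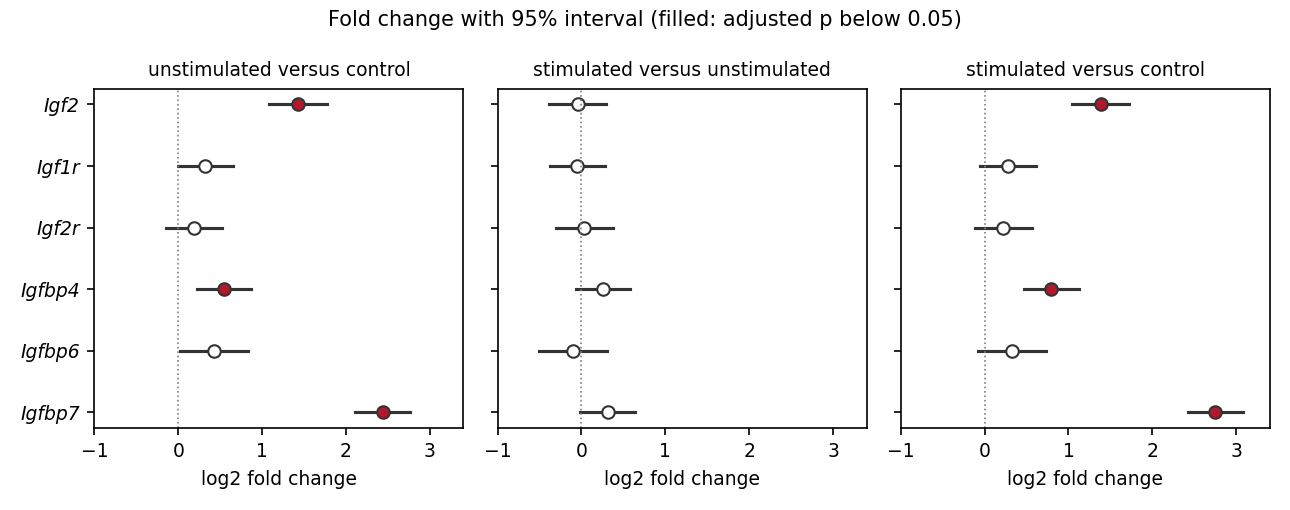
Log2 fold change (x axis) with its 95% interval for each of the 6 tested members in the 3 comparisons; filled points have an adjusted p below 0.05. Igfbp7, Igf2 and Igfbp4 are filled in both comparisons with control cells, and no point is filled in stimulated against unstimulated cells.

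Across the 3 groups, the mean log2 level of Igfbp7 was 9.57 in stimulated, 9.25 in unstimulated and 6.82 in control cells, and that of Igfbp4 was 12.37 in stimulated, 12.11 in unstimulated and 11.57 in control cells. For both genes the neighbours stimulated and unstimulated did not differ past the threshold. For Igf2 the order of the starved groups was the reverse, 7.06 in stimulated and 7.11 in unstimulated cells against 5.68 in control cells, and again only control cells stood apart. On the probes used, the control group had the lowest mean for all 6 tested members; for Igf1r, the probe detected on 3 arrays had its lowest mean in stimulated cells (5.31 in stimulated, 5.54 in unstimulated and 5.35 in control cells).

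The genes whose profile over the 6 arrays was nearest to that of Igfbp7, by Euclidean distance between log2 values centred on each gene's mean, were Igtp (distance 0.362), Lbh (0.389) and Egr2 (0.393). Igtp encodes an interferon-inducible GTPase, Lbh a transcription cofactor and Egr2 a zinc finger transcription factor. Their log2 fold changes in unstimulated against control cells were 2.15 for Igtp, 2.76 for Lbh and 2.55 for Egr2, beside 2.44 for Igfbp7. No member was called lower, so no profile was matched for a fall.

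Markers of mesenchymal cells moved in the same comparison. In unstimulated against control cells 6 of 8 tested fibroblast and mesenchymal markers were called higher and 1 lower, beside 17.1% and 13.7% of all tested genes. Their median log2 fold change was 1.17. In stimulated against control cells 6 were called higher and 1 lower, beside 15.9% and 13.2% of all tested genes, with a median of 1.16. In stimulated against unstimulated cells 0 were called. Of these markers, named here after their values were seen, Dcn, a matrix proteoglycan, rose by 1.88, Pdgfrb, a growth factor receptor gene, by 1.75 and the collagen gene Col3a1 by 1.59 log2 units in unstimulated against control cells, and Col1a2 fell by 0.95. Col1a2 was near background in starved cells, at 111.3 and 110.1 in stimulated and 125.1 and 112.1 in unstimulated cells. It was detected there on 1 array of each group, so the size of its fall is uncertain. Col1a1, called higher in both comparisons with control cells, was detected on neither control array (92.2 and 88.5). The call on Fn1 depended on the probe. In unstimulated against control cells the probe used gave 0.58 (limma adjusted p 0.0265). Its other detected probes gave 0.014 and 0.14 there, and 0.62 and 0.45 in stimulated against control cells, and were not called. The summed signal of the 9 markers was 27863.7 and 28169.1 in stimulated cells, 28113.6 and 32802.1 in unstimulated cells, and 16209.3 and 24813.2 in control cells. Vim, an intermediate filament gene that was not called in any comparison, made up most of the control sums. Its signal was 15535.2 and 13518.9 in stimulated cells, 14934.5 and 20272.7 in unstimulated cells, and 11149.5 and 18402.1 in control cells. The sums did not follow Vim alone: control replicate 2 had a higher Vim signal than either stimulated array but a lower sum. The summed signal of the 9 epithelial and colon markers, nearly all undetected, was 732.7 to 758.1 in stimulated, 786.8 to 808.7 in unstimulated and 802.8 to 809.7 in control cells. Leukocyte, endothelial and hepatocyte markers were at background, with at most 1 marker detected on any array. The part of the mesenchymal markers in the rises of Igfbp7, Igf2 and Igfbp4 was not tested.

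Of 73 other genes of the pathway, chosen by function, 66 had a probe and 41 were tested. In unstimulated against control cells 11 of the 41 were called higher (26.8%, beside 17.1% of all tested genes) and 4 lower (9.76%, beside 13.7%), with a median log2 fold change of 0.14. By list, the median there was 0.22 for extracellular partners and proteases, 0.20 for the insulin receptor family and adaptors, 0.14 for PI3 kinase and Akt genes, -0.45 for RNA-binding and imprinted genes and -0.014 for other genes with the IGFBP domain, beside -0.0016 for all tested genes. In stimulated against unstimulated cells 0 were called in either direction with limma, the lowest adjusted p being 0.491. In stimulated against control cells 10 were called higher (24.4%, beside 15.9%) and 4 lower (9.76%, beside 13.2%), with a median of 0.089.

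Of all tested genes, 17.1% were called higher and 13.7% lower in unstimulated against control cells, and 15.9% and 13.2% in stimulated against control cells. Outside the cell, 2 of 5 tested partners and proteases were called higher and 0 lower in unstimulated against control cells. These were Stc1, whose product stanniocalcin-1 inhibits the IGFBP protease PAPP-A, with a log2 fold change of 0.56 ± 0.16 (limma adjusted p 0.0269), and Adamts1, a secreted metalloprotease gene, with 0.67 ± 0.19 (limma adjusted p 0.0260). The same genes were called in stimulated against control cells, at 0.69 for Stc1 and 0.82 for Adamts1. Other detected Adamts1 probes gave 0.44 and 0.98 there and were not called (limma adjusted p 0.134 and 0.102 over all detected probes). In unstimulated against control cells the first of these probes gave 0.76 and passed the threshold (limma adjusted p 0.0226). The other gave 0.47 and did not (limma adjusted p 0.416). Pappa itself, Igfals, which encodes the acid-labile subunit of the circulating IGF complex, and Igfbp1 were detected on no array.

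In unstimulated against control cells 17.1% of all tested genes were called higher and 13.7% lower. At the receptor and its adaptors, 2 of 9 tested genes were called higher and 0 lower in that comparison. The absence of a fall depended on the probe: another probe of Crk, an adaptor gene named after its value was seen, gave -0.83 ± 0.22 (limma adjusted p 0.0260 over all detected probes), against 0.29 on the Crk probe used. In stimulated against control cells that probe gave -0.82 (limma adjusted p 0.0281), against 0.22 on the probe used. Insr, the insulin receptor gene, gave signals of 779.8 and 837.1 in stimulated cells, 817.1 and 803.7 in unstimulated cells, and 528.5 and 644.6 in control cells. All arrays of starved cells were above both control arrays, and the log2 fold change was 0.52 ± 0.14 in unstimulated against control cells (limma adjusted p 0.0220) and 0.67 ± 0.14 in stimulated against control cells (limma adjusted p 0.00816). In stimulated against unstimulated cells it was 0.14 (limma adjusted p 0.847). Shc1, an adaptor that links the receptor to Ras, had 0.91 ± 0.15 in unstimulated against control cells (limma adjusted p 0.00246), but a second probe gave 0.23 ± 0.20. In stimulated against control cells 2 of the 9 were called higher and 1 lower, beside 15.9% and 13.2% of all tested genes. Shc1 had 0.75 there, and Ptpn1, a phosphatase gene of the insulin receptor, fell by 0.62 log2 units (limma adjusted p 0.0496). Irs2, an insulin receptor substrate gene, was not called, at 0.20 in unstimulated against control cells (interval -0.15 to 0.56), -0.027 in stimulated against unstimulated cells and 0.18 in stimulated against control cells, and Irs1 was detected on no array.

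Among PI3 kinase and Akt genes, 6 of 19 tested were called higher and 1 lower in unstimulated against control cells. Over all tested genes the shares were 17.1% and 13.7%. Pik3ip1, an inhibitor of PI3 kinase, gave signals of 219.6 and 251 in stimulated cells, 316 and 215.2 in unstimulated cells, and 99.6 and 105.3 in control cells, where it was not detected. On the background-corrected, normalized scale it was at least 3.65-fold higher in unstimulated than in control cells (limma adjusted p 0.000109) and at least 3.59-fold higher in stimulated than in control cells, taken against the lowest detected signal of each control array. These bounds hold only after background correction: the deposited signals printed here, which include background, differ by smaller ratios. Trib3, a pseudokinase gene whose product binds Akt, had 1.25 ± 0.16 and Pik3r3, a regulatory subunit gene of PI3 kinase, had 0.78 ± 0.16 in unstimulated against control cells. Gsk3b, a kinase gene downstream of Akt, had 0.67 ± 0.15 on the probe used and -0.22 ± 0.18 on another, so its direction depended on the probe. Mtor, the gene of a kinase downstream of Akt, was not called on the probe used (-0.25), but another probe, named after its value was seen, gave -0.76 ± 0.16 (limma adjusted p 0.0107 over all detected probes), and -0.78 in stimulated against control cells. The remaining calls, named after their values were seen, were Eif4ebp1, a translation repressor gene, at 0.59, Pik3r1, another regulatory subunit gene, at 0.48, and the fall of Pik3cb, a catalytic subunit gene, at -0.56 ± 0.14. In stimulated against control cells 5 were called higher and 1 lower, beside 15.9% and 13.2% of all tested genes. The rises included Pik3ip1, Trib3 at 1.16, Pik3r1 at 0.92 and Foxo3, a FOXO factor gene, at 0.82. The fall was that of Pik3cb at -0.57.

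Of 3 tested genes that encode RNA-binding or imprinting regulators of Igf2 or are imprinted themselves, 0 were called higher and 2 lower in unstimulated against control cells. Over all tested genes the shares were 17.1% and 13.7%. Dlk1, an imprinted gene of a membrane protein, gave signals of 377.3 and 421 in stimulated cells, 466.1 and 488.4 in unstimulated cells, and 626.7 and 688.3 in control cells. All arrays of starved cells were below both control arrays. The log2 fold change was -0.53 ± 0.15 in unstimulated against control cells (limma adjusted p 0.0242) and -0.67 ± 0.15 in stimulated against control cells. Dlk1 was the only gene of the 3 called there on the probes used, beside 13.2% of all tested genes called lower. Ctcf, whose product is the insulator factor at the imprinted Igf2 locus, had -0.44 ± 0.14 in unstimulated against control cells (limma adjusted p 0.0410). The third, Igf2bp3, whose product binds Igf2 mRNA, had -0.45 on the probe used and was not called (limma adjusted p 0.0514). Another Igf2bp3 probe, named after its value was seen, passed the threshold in stimulated against control cells, at -1.27 ± 0.18 (limma adjusted p 0.00240 over all detected probes), and gave -0.75 in stimulated against unstimulated cells (limma adjusted p 0.328). The remaining 3 detected Igf2bp3 probes were also below 0 in both comparisons with control cells and were not called.

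Among 6 tested genes that share the IGFBP domain with the members, 1 was called higher and 1 lower in both comparisons with control cells. Over all tested genes, 17.1% were called higher and 13.7% lower in unstimulated against control cells. In stimulated against control cells these shares were 15.9% and 13.2%. With 6 genes, 1 call in each direction is near these shares. Ccn5 had a log2 fold change of 1.43 ± 0.18 in unstimulated against control cells (limma adjusted p 0.000889) and 1.65 ± 0.18 in stimulated against control cells. Ccn1 had -0.60 ± 0.16 in unstimulated against control cells (limma adjusted p 0.0199) and -0.79 ± 0.16 in stimulated against control cells. Its other detected probes gave -0.52 and -0.61 in unstimulated against control cells. Neither was called (limma adjusted p 0.109 and 0.0840 over all detected probes). In stimulated against control cells they gave -0.70 and -0.80 and passed the threshold (limma adjusted p 0.0441 and 0.0356). Ccn5 and Ccn1 both encode secreted matricellular proteins of the CCN family, and these genes moved in opposite directions.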

How the data were processed

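RNA of 6 MC38 samples (2 each of stimulated, unstimulated and control cells, grouped by the sample titles) was amplified to biotin-labelled cRNA for Illumina bead arrays, per the labels' protocols. The deposited signals are linear intensities without normalization or background subtraction. Detection p-values, per the file headers, were deposited with the signals and rate each probe against its array's negative control beads. A deposited log2 table equalled quantile-normalized log2 signals to within 0.00203 on every probe. Which software summarised the beads is not stated in the labels or file headers. Any 2 arrays shared 88 to 134 identical values among 45281, so the 6 arrays were taken as different hybridisations.

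Signals were corrected and normalized with neqc of limma 3.58.1 in R 4.3.3 (normexp, offset 16, negative controls derived from the detection p-values, then quantile normalization and log2). The platform annotation gave 1 gene symbol to 34885 probes, several to 18 and none to 10378. Tested were 14157 probes with 1 symbol and a detection p-value below 0.01 on at least 2 of 6 arrays, with the probe of the highest mean taken per gene (8909 genes). A linear model with 1 mean per group over all 6 arrays (3 residual and 6.00 prior degrees of freedom) gave two-sided moderated tests, adjusted by Benjamini-Hochberg over all genes. For a gene detected on neither array of 1 group, the fold is a bound, in which each of those arrays counts with the larger of its lowest detected signal and the signal of the probe. The steps were tested on simulated data. The number of arrays limits the precision.

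The members and gene lists were chosen with earlier results of these data known. All 10 members were named; of the other lists, up to 4 called genes with the largest change per list and comparison, and always Insr, Irs1, Irs2, Igfbp1, Igfals and Pappa. Alternatives covered background correction, scaling, the deposited log2 table, detection filters, probe choice, the variance prior, the arrays fitted, a replicate block and leaving out each array. Promoter windows came from the RefSeq table for GRCm38.p6.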

Additional observations from a re-analysis of the deposited data

How the results depend on the processing

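Each result was recomputed under 17 alternatives. The number of members called was 2 to 4 in unstimulated against control cells, 0 in every alternative in stimulated against unstimulated cells, and 3 to 4 in stimulated against control cells. Igfbp7 and Igf2 were called in both comparisons with control cells under 17 of 17 alternatives, with log2 fold changes of 1.90 to 2.49 for Igfbp7 and 0.78 to 1.54 for Igf2 in unstimulated against control cells. Igfbp4 was called under 13 of 17 there and under 17 of 17 in stimulated against control cells. Igfbp6 in unstimulated against control cells was called without background correction (0.39, adjusted p 0.0434), with the deposited log2 table (0.39, 0.0433), with a variance trend (0.43, 0.0451) and without unstimulated replicate 1. The cause was not tested.

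In stimulated against unstimulated cells, leaving out 1 array turned the sign of 4 uncalled estimates: the range was -0.33 to 0.14 for Igfbp6, -0.0856 to 0.16 for Igf2r, -0.11 to 0.0121 for Igf1r and -0.14 to 0.0485 for Igf2. Igf2r was also -0.0914 with median scaling, above the median of all genes under that scaling (-0.13). Over all genes, 7 were called in that comparison, against 44 without background correction or with the deposited table, 43 with a variance trend, 36 with an offset of 50, 17 among genes detected on all arrays, 15 with median scaling and 4 to 8 when 1 array was left out (4 without stimulated replicate 1 and 4 without unstimulated replicate 1). Leaving out 1 array gave 1366 to 2831 called genes against 2746 in unstimulated against control cells, and 1554 to 2324 against 2589 in stimulated against control cells.

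The replicate number as a block gave 3 called members in unstimulated against control, 0 in stimulated against unstimulated and 3 in stimulated against control cells, and changed no call on a member. Samples with the same replicate number did not deviate together: across the tested genes their deviations from the group means correlated at -0.0088 (stimulated and unstimulated), -0.040 (stimulated and control) and -0.021 (unstimulated and control). These values show no strong shared deviation, and cannot settle whether samples with the same number were prepared together. Signal over background limits Igf2 in control cells and leaves Igf1, Igfbp2, Igfbp3 and Igfbp5 without a measured level.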
